A study of Chromochloris zofingiensis with 14 samples.

Results

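Described here are 6 genes of the green alga Chromochloris zofingiensis that lead from an isoprenoid precursor to lycopene: GCPE, GGPS, PSY, PDS, ZISO and ZDS. They were taken by gene ID from the gene annotation deposited with a transcriptome study, and they are 6 of its 15369 genes. The study grew strain SAG 211-14 in shaken Proteose medium at 25 °C, with 16 h of light and 8 h of dark. It made 1 library, depleted of ribosomal RNA, for each of 14 conditions. These were light of 40, 100 or 400 μmol photons m−2 s−1, 48 h without light, 1 h without Fe, P, S or N, and 4 h of anaerobic culture, lit or dark. The others were 20 mM glucose for 72 h, 1 mM H2O2 for 2 h, and 5 μM rose bengal with 0.5 h of dark and 1 h of light or with 1 h of dark and 3 h of light. Except for the cultures at 40 or 400, lit cultures had 100 μmol photons m−2 s−1. No values per library were analysed here, so no condition is compared, and every number below describes gene models and not their expression.

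Carotenoids are built in the plastid from isoprenoid units. The MEP pathway, a plastid route shared with bacteria, makes the isoprenoid units, and prenyl transferases join them into geranylgeranyl diphosphate. Phytoene synthase condenses a pair of these chains into colourless phytoene, and desaturases and isomerases turn phytoene by way of zeta-carotene into red lycopene. Lycopene is the branch point to the beta- and epsilon-ring carotenoids, and in this alga part of the flow goes on to astaxanthin.

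The 6 genes were spread over 4 chromosomes and split evenly between the strands, 3 on each. All 6 models came from the prediction program AUGUSTUS. They differed widely in structure. GCPE had the most coding bases, 2172, and the most introns, 13. ZDS followed with 1704 coding bases and 9 introns, and PDS with 1677 and 6. ZISO had 1116 coding bases and 5 introns, and GGPS 1065 and 7. PSY stood at the other end with 540 coding bases and no intron. Lengths are sums of coding segments, because no model in the annotation extends past its coding region.

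**Figure D1:**
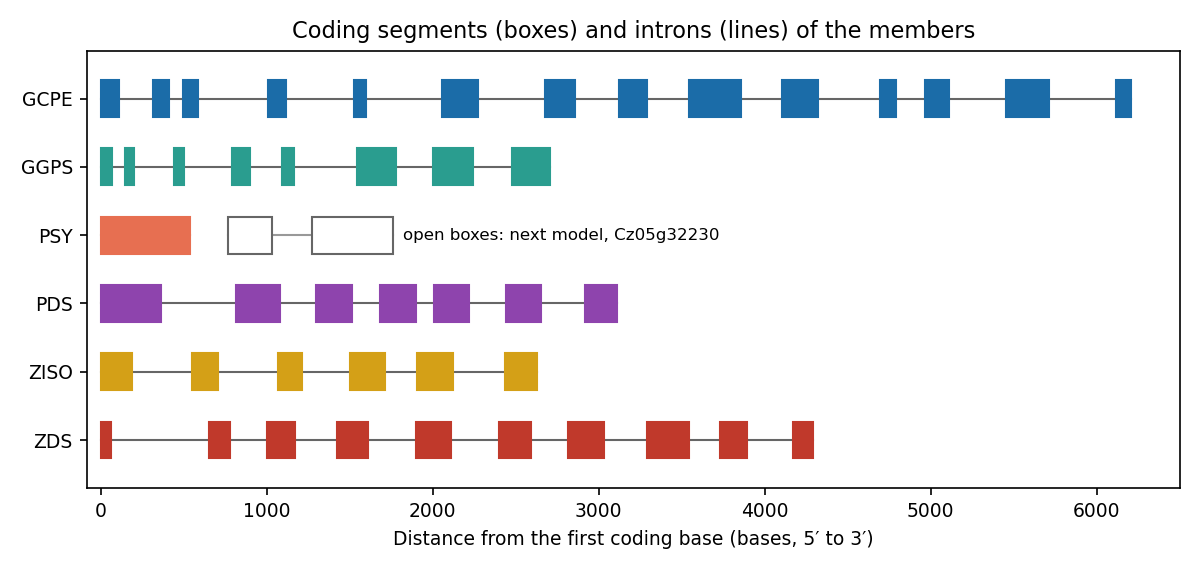
Coding segments (boxes) and introns (lines) of the 6 genes, drawn to scale in bases from the first coding base, 5′ to 3′. GCPE spreads over 6206 bases in 14 segments, PSY is a single box of 540 bases, and the open boxes on its row are the 2 segments of the next gene model on the same strand.

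Set against the 14427 genes of the 19 chromosomes, 5 of the 6 members lay above the median coding length of 1062 bases. The members' median of 1396.5 bases exceeded the coding length of 63.1% of chromosomal genes. GGPS, just above the genome median, was longer than 50.0% of genes, ZISO than 52.1%, PDS than 71.6%, ZDS than 72.4% and GCPE than 81.4%, whereas PSY was longer than 22.4%. By intron number the 5 members with introns stood higher than by coding length, and PSY, with 0, stood at the bottom. All 5 members with introns had more than the chromosomal median of 3, as did 45.1% of all chromosomal genes. GCPE had more introns than 96.0% of genes, ZDS than 89.0%, GGPS than 80.2%, PDS than 73.2% and ZISO than 64.7%. These are descriptions of 6 single models, and no test was run over them.

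**Figure D2:**
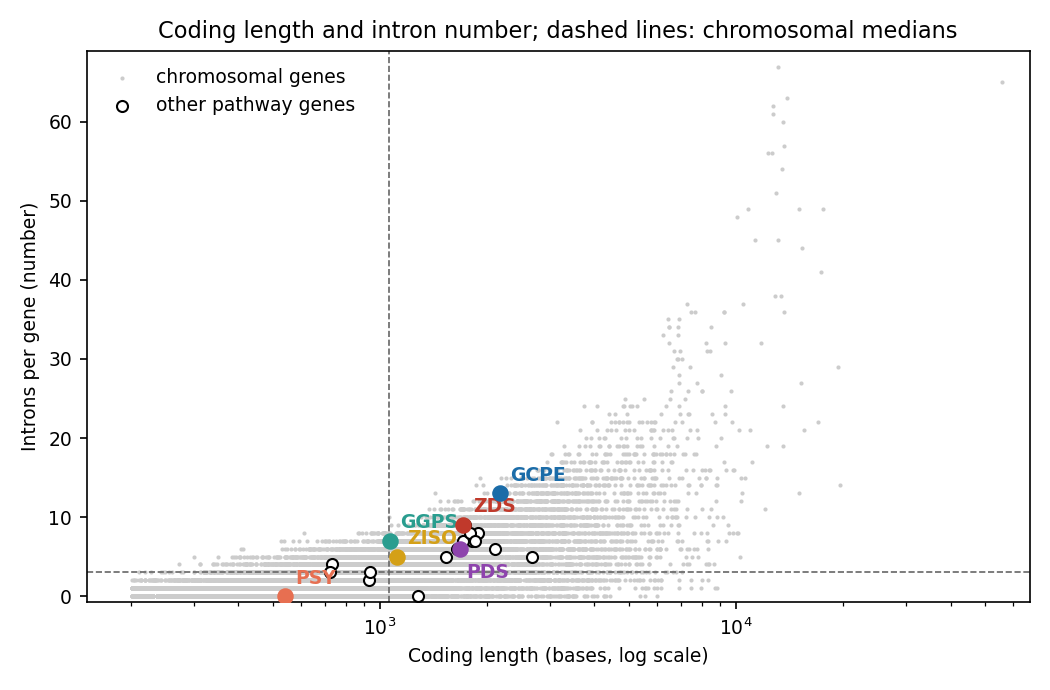
Coding length in bases (log scale) against the number of introns for each chromosomal gene (grey), the other named genes of the pathway (open circles) and the 6 members (coloured). GCPE, ZDS, GGPS, PDS and ZISO lie above the median of 3 introns, and PSY lies at 0 introns and 540 bases.

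GCPE (Cz13g08020, chromosome 13, 809093 to 815298, plus strand), described in the deposited file as an isoprenoid gene of the plastid MEP pathway, encodes the enzyme also called HDS or IspG, which acts near the end of that pathway. It was the longest of the members, with a span of 6206 bases, longer than 93.4% of chromosomal genes. Introns made up 65.0% of the span, more than in 95.5% of genes. Its 14 coding segments had, in order, 111, 99, 93, 107, 76, 218, 176, 167, 315, 213, 100, 143, 264 and 90 bases. The 5 segments at the 5′ end were thus short, between 76 and 111 bases. The 13 introns ran from 81 bases (the second) to 454 (the fifth), with a median of 340, above the median intron of 86.7% of spliced genes. Of these introns 9 lay between codons (phase 0), 2 after the first base of a codon (phase 1) and 2 after the second (phase 2). The model score deposited with GCPE was 1, a value shared by 16.7% of scored chromosomal genes. The file does not say what this score is.

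The gene on the 5′ side of GCPE was FDX4 (Cz13g08015), a ferredoxin gene on the opposite strand. The 2 genes pointed away from each other, and their coding regions lay 736 bases apart, a distance that 33.6% of the 3723 divergent neighbours on the chromosomes did not exceed. In plants and cyanobacteria the GCPE enzyme takes electrons from ferredoxin. FDX4 was made manually, carried no score, and had 417 coding bases and 2 introns. It was 1 of 7 genes described as ferredoxin, and the other 6 had no named gene of the isoprenoid and carotenoid pathway as a direct neighbour. A second ferredoxin gene, FDX2, lay on the far side of GCPE at a distance of 42036 bases, with 9 genes between. FDX4 was also the one named gene among the 12 direct neighbours of the members. Over all named chromosomal genes, 50 of 984 flanks, 5.08%, had a named neighbour, and 8 divergent pairs had names on both sides, of which 3, counting GCPE and FDX4, lay within 736 bases. On its 3′ side GCPE was followed on the same strand by the unnamed Cz13g08030 after 2195 bases.

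GGPS (Cz02g19200, chromosome 2, 1979718 to 1982426, minus strand) encodes geranylgeranyl diphosphate synthase, the prenyl transferase that supplies carotenoid and chlorophyll synthesis. Its 8 segments fell into a short and a long series. The first 5 had 68, 55, 55, 109 and 71 bases, 358 in all, and the last 3 had 236, 237 and 234, which together held 66.4% of the coding sequence. With 6.57 introns per 1000 coding bases GGPS was the member densest in introns, denser than 94.7% of chromosomal genes, whose median was 2.90. The introns had 79, 243, 290, 194, 382, 221 and 235 bases, so that the first was the shortest. Phases 0, 1 and 2 were used by 3, 2 and 2 introns, and the score was 0.87. On the 5′ side, 2032 bases away and divergent, began Cz02g19210, an unnamed model of 13647 coding bases and 36 introns spread over 22380 bases. On the 3′ side the convergent Cz02g19190 ended 1471 bases away.

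PSY (Cz05g32220, chromosome 5, 3275490 to 3276029, plus strand) encodes phytoene synthase, the first enzyme specific to carotenoids and often a limiting step in plants. Its model was a single segment of 540 bases, or 180 codons, with a score of 0.85. Models without introns, of any function, made up 16.1% of chromosomal genes. Their median coding length was 474 bases, so PSY was not short for that class. Among named chromosomal genes, however, PSY was longer than 11.8%. PSY was the shortest of the 21 named pathway genes, the next being NSY with 723 bases. Whether the PSY model holds the whole coding region was not tested.

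PSY lay within a run of 5 plus-strand genes, close to its neighbour on the 3′ side but not to that on the 5′ side. At 228 bases after PSY began the unnamed Cz05g32230 (3276258 to 3277252), with 2 coding segments of 267 and 492 bases, an intron of 236 bases between them and a score of 0.94. Of the 6964 same-strand neighbours on the chromosomes, 14.1% were no farther apart. The 228 bases also fell between the quartiles of chromosomal intron length, 205 and 320 bases, and lay 8 bases under the intron of Cz05g32230. Together PSY and Cz05g32230 held 1299 coding bases, or 433 codons, more than 59.7% of chromosomal genes. After Cz05g32230 the next gene came 4239 bases later. Whether PSY and Cz05g32230 belong to 1 transcript was not tested. On the 5′ side Cz05g32210, with 2289 coding bases and 10 introns, ended 1104 bases before PSY, a distance that 58.2% of same-strand neighbours did not exceed.

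PDS (Cz02g32280, chromosome 2, 3298346 to 3301457, minus strand) encodes phytoene desaturase, which introduces the first new conjugated bonds and is the target of bleaching herbicides such as norflurazon. Its 7 segments shortened from 366 and 261 bases to 219, 214, 210, 211 and 196. The introns had 451, 217, 171, 111, 222 and 263 bases, the first being the longest. The first 3 introns lay between codons, the next pair were in phase 1 and the last was in phase 2. Introns took 46.1% of the span, close to the median of 46.7% for spliced genes. The score was 1. Its divergent neighbour Cz02g33010 began 497 bases away, the shortest 5′ distance among the members, and 11.3% of divergent neighbours were no farther apart. Cz02g32270 followed on the same strand after 1209 bases. GGPS and PDS shared chromosome 2 and the minus strand but lay 1315919 bases apart, with 355 genes between them.

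ZISO (Cz10g17130, chromosome 10, 1742859 to 1745484, minus strand) encodes zeta-carotene isomerase, which acts between the desaturases. Its 6 segments were even in size, with 188, 157, 148, 215, 216 and 192 bases. The introns had 362, 361, 284, 193 and 310 bases, with a median of 310, and phases 0, 1 and 2 were used by 3, 1 and 1 of them. The score was 0.82.

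ZDS (Cz10g17010, chromosome 10, 1702293 to 1706580, plus strand) encodes zeta-carotene desaturase, a relative of PDS that completes the set of conjugated bonds. Its 10 segments had 61, 128, 165, 184, 213, 196, 219, 253, 165 and 120 bases, shortest at the 5′ end. The first intron of 593 bases came after 61 coding bases and was the longest of all 40 introns of the members. Of all chromosomal introns, 0.669% were longer. The other 8 had 188 to 289 bases. Phases 0, 1 and 2 were used by 4, 3 and 2 introns. The score of ZDS was 0.2, the lowest of the members, and 1.33% of scored chromosomal genes had a score that low, against a median of 0.78. The positions of its segments are given as deposited.

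The 40 introns of the members were close to the genome in length and phase as a group. Their median was 259.5 bases, beside 260 for the 58871 chromosomal introns. Of the 40, 19 lay between the quartiles of chromosomal intron length, 9 lay below them and 12 above. Phase 0 held 22 introns, 55.0%, beside 52.9% of chromosomal introns, phase 1 held 10, 25.0%, beside 24.9%, and phase 2 held 8, 20.0%, beside 22.2%. The 35 internal coding segments had a median of 184 bases, the same as over all chromosomal genes. The first intron was the longest in PDS, ZISO and ZDS, 3 of 5 members with 2 or more introns, beside 22.4% of chromosomal genes with 2 or more. The 22.4% was not matched by number of introns to the members, which had 5 (ZISO) to 13 (GCPE). In ZISO the first and second introns were nearly equal, 362 and 361 bases, and the ZDS model had a score of 0.2. PDS, ZISO and ZDS act in successive steps, and they were singled out after their values were seen.

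**Figure D3:**
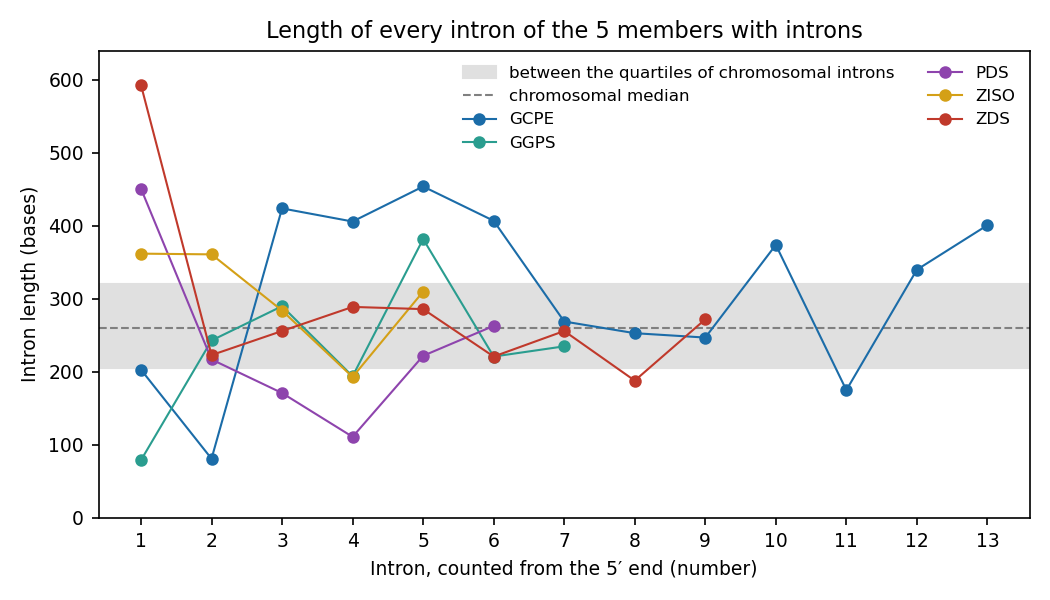
Length in bases of each intron of the 5 members that have introns, by its order from the 5′ end; the grey band spans the quartiles of chromosomal intron length, 205 to 320 bases, and the dashed line is their median of 260. The first introns of ZDS (593 bases), PDS (451) and ZISO (362) lie above the band, and those of GGPS (79) and GCPE (203) below it.

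ZDS and ZISO were near each other in the middle of chromosome 10, at 56.8% and 58.1% of its length. Their coding regions lay 36278 bases apart on opposite strands, with 3′ ends facing each other across 11 other genes. The median distance between chromosomal genes with 11 genes between them was 42116 bases, and 25.1% of such pairs were closer than ZDS and ZISO. The genes in between had 402 to 2613 coding bases, 1 to 8 introns and scores of 0.33 to 1. The plus strand held 4 of them and the minus strand 7. The 12 distances within the interval ran from 42 bases, between Cz10g17030 and Cz10g17040, to 3618, between Cz10g17070 and Cz10g17080, with a median of 991.

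The one named gene between ZDS and ZISO was DGD2 (Cz10g17090, 1729830 to 1733778, plus strand), which encodes a digalactosyldiacylglycerol synthase, an enzyme of plastid membrane lipids. It had 1563 coding bases, 8 introns and a score of 1. DGD2 lay 9080 bases from ZISO with 3 genes between, nearer than ZDS, and 23249 bases from ZDS with 7 genes between. The other 10 genes of the interval carry no name or description in the file, so their functions are not given here.

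Among the named pathway genes ZDS and ZISO were the closest pair. The annotation named 597 genes, and 21 of them belonged to the isoprenoid and carotenoid pathway by name or description. They lay on 10 chromosomes, which gave 16 pairs on a shared chromosome. ZDS and ZISO were the 1 pair closer than 100 kb. The next were CVDE and CYP97A1 at 132959 bases, BKT1 and CVDE at 167904, and PSY and ZEP2, a zeaxanthin epoxidase gene, at 168860. GCPE shared chromosome 13 with BKT1, CVDE and CYP97A1, the nearest being BKT1, a beta-carotene ketolase gene, at 520634 bases. Closeness of this order was common among named genes of any function, a larger set than the 21 pathway genes. The 2 sets are therefore not a like comparison. Of the 492 named chromosomal genes, 267, or 54.3%, had another named gene within 36278 bases, and the median distance to the nearest was 32338 bases.

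The distances from the 6 genes to their 12 direct neighbours ran from 228 to 2195 bases, with a median of 1247.5, beside 966 over all chromosomal genes. With neighbours scored at least 0.5 alone, both medians were longer, 2612.5 bases for the 6 genes and 1211 over all chromosomal genes. On the 5′ side, 5 of the 6 members had a divergent neighbour, beside 51.7% of all chromosomal genes, and PSY had one on its own strand. Besides those already given, ZDS had a divergent neighbour at 1286 bases and ZISO at 1552. On the 3′ side, GGPS and ZDS faced convergent neighbours, ZDS at 1508 bases. GCPE, PSY, PDS and ZISO were followed by a gene on the same strand, ZISO after 563 bases. All these distances run between coding regions and include untranslated sequence.

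**Figure D4:**
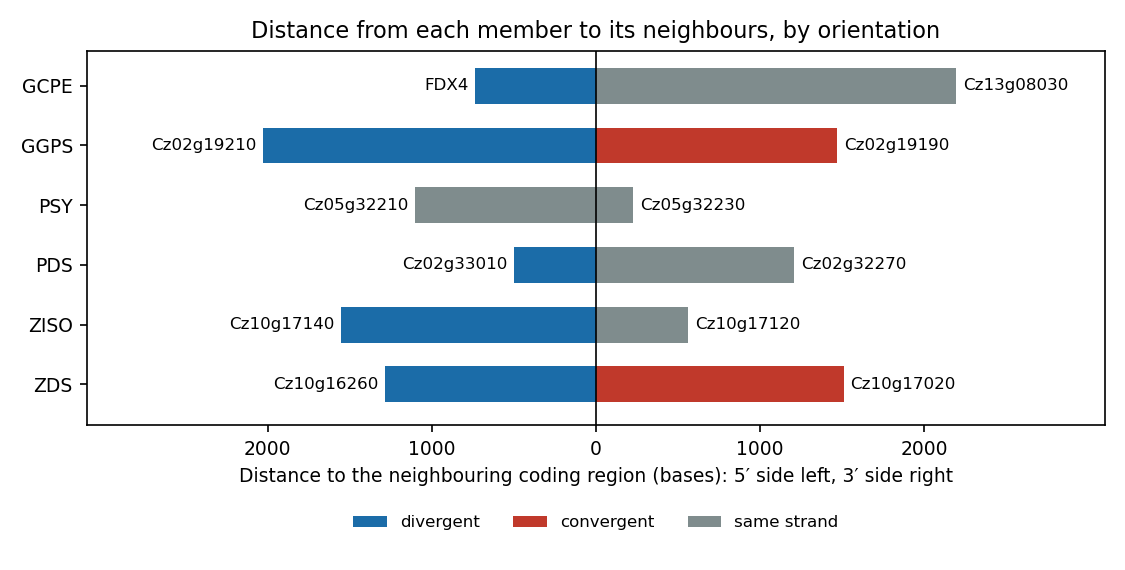
Distance in bases from the coding region of each member to that of its neighbour on the 5′ side (left) and the 3′ side (right), coloured by orientation. The shortest bar is the 228 bases between PSY and Cz05g32230, and 5 of the 6 bars on the 5′ side are divergent.

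The other 15 named genes of the pathway were longer than the members in the median, 1713 against 1396.5 coding bases. They had a median of 6 introns against 6.5. Without PSY the members' median coding length was 1677 bases. Of the 15, 11 exceeded the chromosomal median coding length and 11 the chromosomal median number of introns. They ran from NSY, which encodes neoxanthin synthase, with 723 coding bases, to CVDE, a violaxanthin de-epoxidase gene, with 2676, and from ZEP2 without introns to CYP97C, a carotene hydroxylase gene, with 9. None of them had as many introns as GCPE. The genes for carotene isomerase, which forms all-trans lycopene after ZDS, were CRTISO1 with 1788 coding bases and 8 introns and CRTISO2 with 1527 and 5. A size near that of PDS and ZDS was not particular to them. The lycopene cyclase genes LCYE and LCYB had 1713 coding bases and 7 introns, and 1641 and 6. Of the names listed for the MEP pathway, from DXS to IDI, GCPE was the 1 match. Only the 597 named genes of 15369 were searched, so unnamed genes of that pathway would not be found.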

How the data were processed

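One gene annotation, deposited for the whole series, was analysed. Per the file's source column, the authors' models came from AUGUSTUS (15171 genes) or were manual (198). The deposited score of a model runs up to 1, and its meaning is not given in the sources used here. Per the submitters' processing notes, STAR 2.4.0j and Cuffdiff 2.2.1 were used, with no role stated. Positions count from 1 on the assembly in the file's header, whose build is not named there. Coding segments, the gaps between them (introns) and neighbouring genes were computed with Python 3.11.15, after the reader was tested on a simulated annotation. Intron phase equalled the deposited phase in 60579 of 60579 introns, and every gene had 1 transcript. The members, gene lists and comparisons were chosen with earlier results of these data known. Named are the members, their neighbours, the genes between ZDS and ZISO, and the extremes of the pathway list. Also named are FDX2, the pathway genes in the distances given, the carotene isomerase genes, LCYE and LCYB. The list's match CCDA1, of cytochrome c biogenesis, was left out. No test was run and no sequence was analysed here. Alternatives for the comparison genes, summaries and distances are given at the end. Percentages of genes below a value are set beside exact Clopper-Pearson intervals at 95% when alternatives are compared, which treat genes as independent.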

Additional observations from a re-analysis of the deposited data

How the results depend on the processing

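The median coding length of the 6 genes exceeded 63.1% of chromosomal genes, 65.0% of named chromosomal genes, 63.9% of chromosomal genes scored at least 0.5 and 57.7% of those with an intron. It exceeded 71.6% without PSY, 52.1% without ZDS and 65.8% with PSY and the next model counted as 1, settings chosen after seeing the data. Their median number of introns exceeded 80.2% of chromosomal genes, 75.2% of named ones and 80.9% of those scored at least 0.5, with 82.2% for introns per 1000 coding bases and 73.2% without ZDS. The other pathway genes were placed at 79.3% for coding length and 64.8% for introns among named genes, against 72.6% and 73.2% among all. ZDS and ZISO lay 43191 bases apart from start codon to start codon, and 7 of the 11 genes between them were scored at least 0.5. With only such neighbours, which leaves out FDX4, the median distance to a neighbour was 2612.5 bases against 1247.5, and 4 members had a divergent 5′ neighbour. Of 30 alternatives for single genes, 22 moved past the interval of the main value, by at most 14.7 percentage points. That interval is narrow because the main set holds 14427 genes. It does not cover the spread of smaller sets such as the 492 named genes. The 8 within it include the intron settings of PSY, which could not move because PSY has 0 introns. The median intron and mean length settings stayed within their spread. The name-only setting held the same 15 other pathway genes, so its values could not differ. No paired analysis was possible because the annotation holds no values per sample. Every value rests on gene models, most of them predicted, and no read depth was examined here.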

Other observations

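The gene IDs carry position. In 14427 of 14427 chromosomal genes the digits before the last 3 of the ID equal the 100 kb window in which the gene starts, so ZDS and ZISO, both numbered 17, share a window of chromosome 10, as the 11 genes between them do. Among chromosomal genes 9 IDs end in 5, and all 9 are manual models, FDX4 beside GCPE being one of them.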
